A study of Mus musculus with 2 samples.

Results

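The genes described here encode the machinery of membrane traffic, and they were chosen by symbol: Rab, Arf, Stx (syntaxin) or Snap (synaptosome-associated protein) followed by a digit, Vamp (vesicle-associated membrane protein), Sec followed by digits, the COPI coat genes, the adaptor genes whose symbols start with Ap1, Ap2 or Ap3, Vps (vacuolar protein sorting) and Snx (sorting nexin). On the array, 191 of 12488 probe sets belonged to them, and these read 142 of 8251 genes. The knockout skin came from newborn mice without keratin 5 (K5-/-, labelled ko_skin), and the comparison skin came from newborn wild type mice (labelled wt_skin). The labels give no strain, and the source name calls the tissue epidermis while the titles and the protocol call it skin. RNA of 6 animals per genotype was pooled and hybridised to 1 array, without replicates, so every difference below lies between 2 arrays.

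Cells move proteins between compartments in small membrane carriers. Coat complexes (COPII leaving the endoplasmic reticulum, COPI at the Golgi, clathrin adaptors at the Golgi, endosomes and plasma membrane) bend the membrane and collect cargo, Rab and Arf GTPases mark each compartment and recruit tethers, and SNARE proteins (the VAMP, syntaxin and SNAP families) fuse the carrier with its target. In the epidermis this traffic delivers adhesion proteins to the cell surface, recycles receptors, and secretes the lamellar bodies whose lipids seal the skin barrier.

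A gene was represented by its probe set with the highest mean signal and was called measured when it exceeded a floor of 246.7 signal units, the 40th percentile of all values, on at least 1 array. Of the 142 genes, 123 were measured, 118 of them above the floor on both arrays, 4 on the knockout array alone and 1 on the wild type array alone. The other 19 were at the floor on both arrays and have no ratio. Among these were Snap25, the SNARE of nerve terminals, Rab3b, Rab17, Rab35, Vamp1, Vamp5, Arf2 and Snx27. Ratios are always knockout over wild type, and where 1 of the 2 signals is at the floor the ratio is a bound.

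The deposited signals had a median of 437 in knockout skin and 402 in wild type skin. The targeted gene, Krt5, gave 81.2 in knockout skin and 46.6 in wild type skin, below the floor on both, so it does not check the labels. Of 16 keratinocyte markers on the array 13 were measured (8 higher, 5 lower, median log2 ratio 0.11). Krt5, Krt14 and Krt15, which define the basal layer, were at the floor on both arrays. Whether these probe sets detect their genes was not tested, so they give no reading of the basal layer. Markers of other tissues were higher on the knockout array in 13 of 13 skeletal muscle genes (median 0.23, summed signal 122475 in knockout skin and 101967 in wild type skin) and in 10 of 10 hair follicle genes (0.36, 26435 in knockout skin and 20137 in wild type skin). They were also higher in 9 of 10 dermal fibroblast genes (0.30, 197031 in knockout skin and 167023 in wild type skin) and in 7 of 7 measured macrophage genes (0.58, 9022 in knockout skin and 6154 in wild type skin), while Fcgr3, Itgam and Msr1 were at the floor. Other marker lists were divided, with 3 mast cell genes higher and 3 lower (median 0.04), 3 adipocyte genes higher and 2 lower (0.11), and 1 melanocyte gene higher and 2 lower (-0.05). Xist, transcribed from the inactive X chromosome, read 64.3 in knockout skin and 294 in wild type skin, and the Y-linked gene Eif2s3y read 1182 in knockout skin and 407 in wild type skin, so the pools also differed in these sex-linked transcripts. The part of these differences in any value below was not tested, and in pooled whole tissue fewer cells of a type cannot be told apart from less RNA per cell.

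Vesicle traffic genes differed little between knockout and wild type skin. None of the 123 measured genes was at least 2-fold higher or lower, against 2.24% of all 5976 measured genes (1.54% higher, 0.703% lower). With no floor 3 were higher and 2 lower by that much (2.11% and 1.41%), against 6.81% higher and 2.98% lower of all genes, and all of the 5 except Rab5b were otherwise at the floor on both arrays. At least 1.5-fold, 5 were higher and 5 were lower, together 8.13% of the measured members, against 12.9% of all measured genes (7.63% higher, 5.27% lower). The median log2 ratio was -0.02, against 0.04 for all measured genes, and 58 genes were higher and 65 lower, while 53.9% of all measured genes had a ratio above 0. The SD across members was 0.35 on the log2 scale, against 0.40 across all measured genes.

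**Figure D1:**
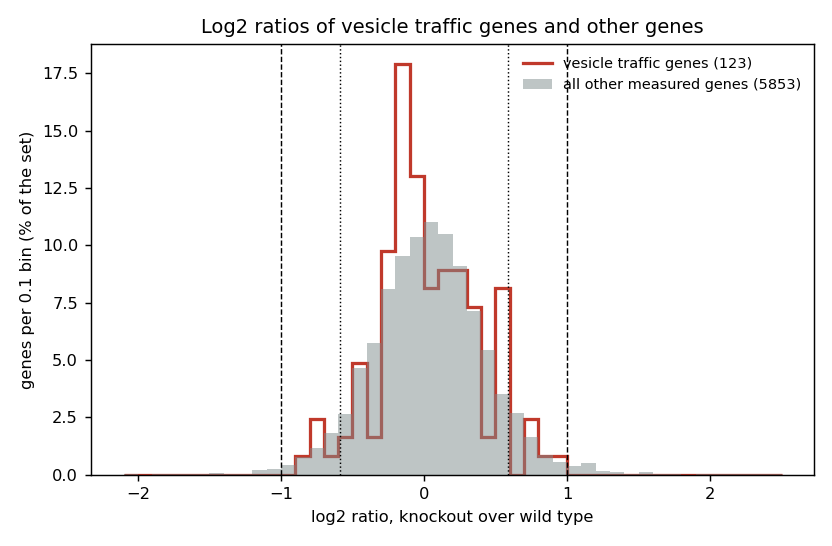
Distribution of log2 ratios, knockout over wild type, for the 123 measured vesicle traffic genes (red outline) and the 5853 other measured genes (grey), as percent of each set per bin. Dashed lines mark 2-fold and dotted lines 1.5-fold. No traffic gene lies beyond the dashed lines. Traffic genes have a second, smaller peak just inside the right dotted line. Beyond that line lie 4.07% of them, against 7.63% of all measured genes.

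The genes just short of 1.5-fold were mostly on the higher side. Between a log2 ratio of 0.50 and the 1.5-fold limit lay 10 members (8.13%), against 3.25% of all measured genes in the same interval. On the lower side, 2 members (1.63%), Vps29 and Vps52, lay in the matching interval, against 2.26% of all measured genes. The 10 were the adaptor genes Ap1m1 and Ap1s1, the GTPase genes Arf6, Rab4a, Rab5b, Rab21 and Rab25, the lipid-transfer gene Sec14l1, and Sec16a and Sec23a of the COPII coat. The value of Rab5b is a bound, as its wild type signal was at the floor, and it was past 2-fold under a 25th percentile floor. The other probe set of Ap1m1 had a log2 ratio of -0.75. This interval was chosen after its values were seen. Past its upper limit the order was reversed, with 4.07% of the members at least 1.5-fold higher, against 7.63% of all measured genes. The interval by itself therefore does not show an excess of members among the higher genes.

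**Figure D2:**
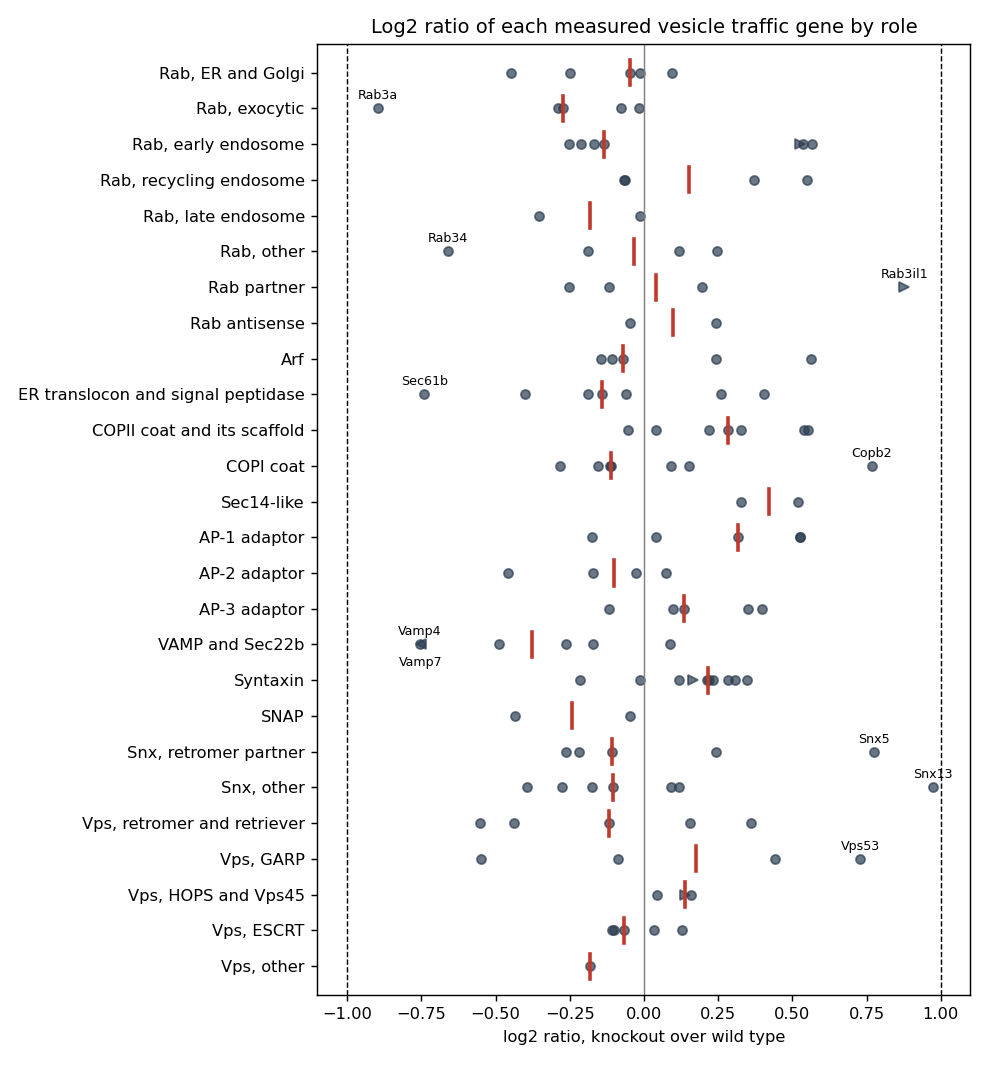
Log2 ratio of each measured vesicle traffic gene, 1 row per role. Circles are genes above the floor on both arrays, triangles are bounds for genes above it on the knockout array alone (pointing right) or the wild type array alone (pointing left), red bars are group medians, dashed lines mark 2-fold, and the 10 genes at least 1.5-fold different are named.

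The 10 genes past 1.5-fold came from different machines of the pathway. Snx13, a sorting nexin with an RGS domain, read 558 in knockout skin and 284 in wild type skin, a 1.97-fold difference that was the largest among the members by their brightest probe sets. Rab3il1, an exchange factor for Rab3 and Rab8, read 453 in knockout skin and 247 in wild type skin (the floor), so it was at least 1.84-fold higher. Snx5, a membrane-bending partner of the retromer, was 1.71-fold higher (1423 in knockout skin, 833 in wild type skin), and its other probe set above the floor had a log2 ratio of 0.36. Of these 3 genes, 2 encode sorting nexins. Vps53, a subunit of the GARP tether that receives endosomal carriers at the Golgi, was 1.66-fold higher (1908 in knockout skin, 1152 in wild type skin). Copb2, the beta prime subunit of the COPI coat, was 1.70-fold higher (6597 in knockout skin, 3876 in wild type skin) by its brighter probe set, but its other probe set read 1117 in knockout skin and 1442 in wild type skin, a log2 ratio of -0.37.

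On the lower side, Rab3a, the Rab of regulated exocytosis in nerve and endocrine cells, was 1.86-fold lower, with 547 in knockout skin and 1017 in wild type skin. The 4 measured nerve and Schwann cell markers were lower on the same array (median -0.18, summed signal 7366 in knockout skin and 8411 in wild type skin, with Mag, Nefl, Nefm, Prph and S100b at the floor), and their part in the Rab3a value was not tested. Vamp4, a SNARE of the trans-Golgi network, was 1.69-fold lower (828 in knockout skin, 1396 in wild type skin), while its other probe set read 468 in knockout skin and 428 in wild type skin. Vamp7, a SNARE of late endosomes and lysosomes, read 245 in knockout skin and 416 in wild type skin and was at least 1.68-fold lower. Vamp7 lies on the X chromosome, as do Snx12 (log2 ratio -0.28) and Rab9 (-0.01), and the part of the Xist and Eif2s3y differences in these values was not tested. Sec61b, a small subunit of the channel through which proteins enter the endoplasmic reticulum, was 1.67-fold lower (2579 in knockout skin, 4310 in wild type skin). Rab34, a Golgi-associated Rab with a role in building cilia, was 1.58-fold lower (1930 in knockout skin, 3051 in wild type skin).

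**Figure D3:**
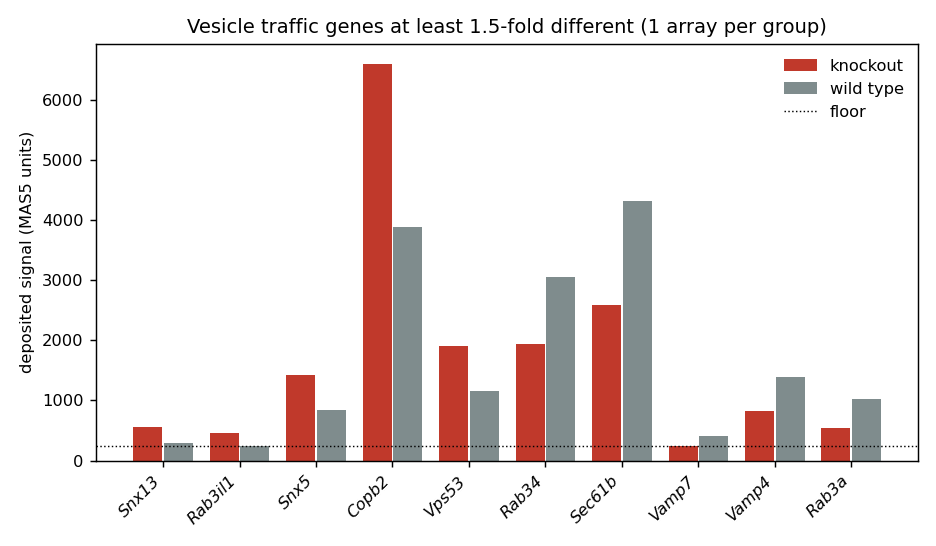
Deposited signal of the 10 vesicle traffic genes at least 1.5-fold different, with the knockout array in red and the wild type array in grey, 1 array each and no error bars, ordered by log2 ratio. The dotted line is the floor of 246.7, which the wild type signal of Rab3il1 and the knockout signal of Vamp7 do not exceed.

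Genes with more than 1 probe set show part of the technical error of a single ratio. All probe sets were read on the same 2 arrays, so error between pools or between arrays is not in this spread. In 27 traffic genes at least 2 probe sets lay above the floor on both arrays, and the within-gene SD of their log2 ratios was 0.38, against 0.30 over the 838 such genes of the whole array. In 14 of the 27 (51.9%) the probe sets had opposite signs, as they did in 37.7% of the 838. The probe sets were more than 1 apart on the log2 scale in 3 genes, Ap1m1, Snx17 and Copb2. Ap1m1, the medium subunit of the AP-1 adaptor, read 2751 in knockout skin and 1910 in wild type skin with 1 probe set, and 296 in knockout skin and 497 in wild type skin with the other. Snx17, which recycles integrins and lipoprotein receptors, read 825 in knockout skin and 1085 in wild type skin, and 442 in knockout skin and 263 in wild type skin. The distance was smaller where Ap2a2, an AP-2 subunit gene, read 2833 in knockout skin and 2691 in wild type skin with 1 probe set, and 1054 in knockout skin and 1173 in wild type skin with the other. Sec62, a translocon gene, read 654 in knockout skin and 722 in wild type skin, and 501 in knockout skin and 490 in wild type skin. Rab33b, a Golgi Rab, read 1092 in knockout skin and 1128 in wild type skin, and 511 in knockout skin and 487 in wild type skin. Most ratios below are no larger than this spread.

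**Figure D4:**
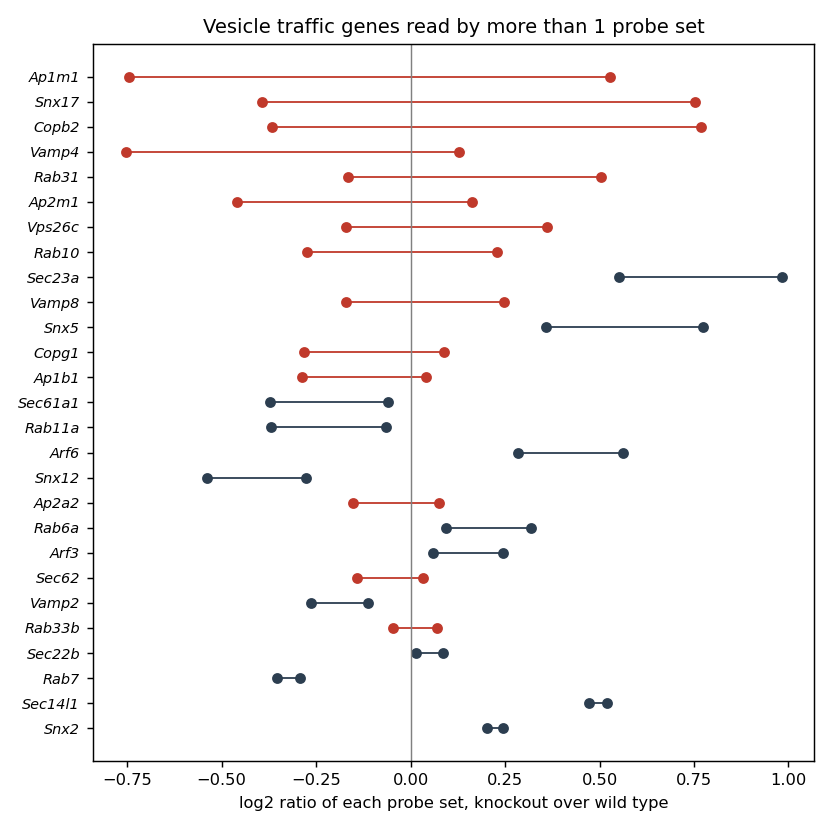
Log2 ratio of every probe set above the floor on both arrays, for the 27 vesicle traffic genes with at least 2 of them, sorted by the distance between probe sets. Red marks the 14 genes whose probe sets have opposite signs, with Ap1m1, Snx17 and Copb2 at the top.

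Genes that start the secretory pathway did not move as a unit. COPII coat and scaffold genes were higher in 6 of 7 measured cases, with a median log2 ratio of 0.28 and none past 1.5-fold. Sec23a, which activates the Sar1 GTPase and lines the inner coat, read 3027 in knockout skin and 2065 in wild type skin (1.47-fold higher), and its other probe set read 906 in knockout skin and 459 in wild type skin, a log2 ratio of 0.98. Sec16a, the scaffold of the exit sites, read 4416 in knockout skin and 3041 in wild type skin, 1.45-fold higher. Its neighbours in the coat were nearer to equal: Sec23ip had a log2 ratio of 0.33, Sec23b 0.28, the cargo adaptor gene Sec24c 0.22, and the outer coat genes Sec31a and Sec13 were at 0.04 and -0.05. Sec24b was at the floor on both arrays.

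The channel upstream of that coat ran the other way in more of its genes. Of 7 translocon and signal peptidase genes 5 were lower and 2 higher (4 and 3 with a lowess correction or with the mean over probe sets), with a median of -0.14. After Sec61b, the lowest was Sec11a, a catalytic subunit of signal peptidase, with 3800 in knockout skin and 5024 in wild type skin (log2 ratio -0.40). The pore gene Sec61a1 was at -0.06, with its other probe set at -0.37, and Sec61a2 at -0.19, Sec62 was at -0.14, and the other signal peptidase gene, Sec11c, was at 0.26. The highest was Sec63, which assists entry together with the chaperone BiP, with 428 in knockout skin and 324 in wild type skin (0.40). The COPI coat, which returns proteins from the Golgi to the endoplasmic reticulum, had a median of -0.11 over 7 genes. Apart from Copb2, its genes stood between Copg1 (1433 in knockout skin, 1742 in wild type skin, -0.28) and Copa (0.15). The other probe set of Copg1 read 1142 in knockout skin and 1075 in wild type skin.

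The start regions of Sec23a, Copb2 and Sec61b of this early pathway, and of Rab34, were read from the RefSeq promoter table. The windows (build GRCm38.p6) run from 250 bases before to 50 after the gene's start, and the table held 105 of the 123 measured genes. All 4 genes shown hold a motif marked below. Sec23a and Copb2 are the highest coat genes by their brightest probe sets. Sec61b and Rab34 were the only 2 of the 105 with the motif marked in them, and Rab3a, Vamp4 and Vamp7 had lower ratios than both. For Sec23a (chr12:59011968-59012267, minus strand) and Copb2 (chr9:98563481-98563780, plus strand) the capitals mark the motif TGACGTGG or its reverse complement CCACGTCA, bound by the unfolded protein response factors ATF6 and XBP1. For Sec61b (chr4:47474411-47474710, plus strand) and Rab34 (chr11:78188177-78188476, plus strand, the first of 2 entries) they mark TGAGTCA or its reverse complement TGACTCA, the motif of the AP-1 transcription factor (Fos and Jun), which only shares its name with the AP-1 adaptor. The motifs and these 4 genes were chosen after the values were seen.
Sec23a: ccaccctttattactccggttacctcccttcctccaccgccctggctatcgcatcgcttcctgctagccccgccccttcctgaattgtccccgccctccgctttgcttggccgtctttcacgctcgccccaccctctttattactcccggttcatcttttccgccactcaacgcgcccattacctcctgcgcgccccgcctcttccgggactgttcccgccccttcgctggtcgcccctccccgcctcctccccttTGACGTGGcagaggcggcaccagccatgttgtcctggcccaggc
Copb2: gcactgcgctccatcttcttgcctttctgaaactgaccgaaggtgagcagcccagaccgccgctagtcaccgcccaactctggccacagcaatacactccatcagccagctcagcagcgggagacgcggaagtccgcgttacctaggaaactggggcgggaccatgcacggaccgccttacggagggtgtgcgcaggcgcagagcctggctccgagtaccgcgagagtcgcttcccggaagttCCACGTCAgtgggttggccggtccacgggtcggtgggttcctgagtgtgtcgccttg
Sec61b: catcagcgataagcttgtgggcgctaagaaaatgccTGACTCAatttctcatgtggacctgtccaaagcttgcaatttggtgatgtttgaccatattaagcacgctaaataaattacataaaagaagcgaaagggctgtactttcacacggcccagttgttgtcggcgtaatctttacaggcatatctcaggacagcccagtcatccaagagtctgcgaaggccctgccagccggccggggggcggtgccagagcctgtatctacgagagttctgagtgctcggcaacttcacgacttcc
Rab34: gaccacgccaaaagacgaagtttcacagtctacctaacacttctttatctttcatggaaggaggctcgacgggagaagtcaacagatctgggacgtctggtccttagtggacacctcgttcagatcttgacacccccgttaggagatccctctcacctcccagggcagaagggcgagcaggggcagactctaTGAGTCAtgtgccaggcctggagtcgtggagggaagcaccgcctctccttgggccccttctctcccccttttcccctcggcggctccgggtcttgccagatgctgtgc

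Both strands were searched, and none of the 3 motifs contains another. TGACGTGG was found in 5 of the 105 promoters (4.76%), against 0.607% of 27025 promoters of the table and 0.995% of the 4825 that belong to measured genes. The 5 genes all act between the endoplasmic reticulum and the Golgi: Sec23a (log2 ratio 0.55), Copb2 (0.77), Copb1 (0.09), the syntaxin gene Stx5a (0.21) and Arf1 (-0.07). The Fos and Jun motif was found in 2 of the 105 (1.9%), Sec61b and Rab34, against 3.77% of the promoters of measured genes. The motif TCACGTGA of TFEB, a regulator of lysosomal genes, was found in 8 (7.62%, against 2.09%): Rab21, Rab24, Rab5a, Sec23ip, Sec62, Stx6, Vps16 and Vps26a, whose ratios ran from -0.44 (Vps26a) to 0.53 (Rab21). A match describes the letters of the window and is not a measured binding site.

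SNARE genes divided by family. All 5 measured VAMP genes had lower signals in knockout skin by their brightest probe set, with a median log2 ratio of -0.49, against 46.1% of all measured genes with a ratio below 0. Besides Vamp4 and Vamp7, Vamp3 of recycling endosomes read 1973 in knockout skin and 2767 in wild type skin (1.40-fold lower). Vamp2 read 2617 in knockout skin and 3143 in wild type skin, and its other probe set was lower too (-0.11). Vamp8, a SNARE of secretory granules and late endosomes, read 4681 in knockout skin and 5271 in wild type skin (-0.17), but 2225 in knockout skin and 1876 in wild type skin with its other probe set (0.25). With the mean over probe sets the VAMP median was -0.31. Sec22b, a related SNARE between the endoplasmic reticulum and the Golgi, was at 0.09. Counting Sec22b with the VAMP genes, 5 were lower and 1 higher by the brightest probe set. With the mean over probe sets 4 were lower and 2 higher, as Vamp8 was then no longer lower.

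Syntaxin genes, whose products sit on target membranes, were higher in 8 of 10 cases (7 with quantile normalization or a lowess correction), with a median of 0.22 and none past 1.5-fold. Stx2 of the plasma membrane had the highest ratio (1563 in knockout skin, 1230 in wild type skin, 0.35), and Stx18 of the endoplasmic reticulum the lowest (389 in knockout skin, 452 in wild type skin, -0.22). Stx4a, a main plasma membrane syntaxin of epithelial cells, was at 0.28, Stx12 and Stx6 of endosomes were at 0.23 and 0.22, and Stx7 was at -0.01. Each of these differences is smaller than the within-gene SD of 0.38 found over the traffic genes. Stx2 and Stx8 (0.31) exceed the 0.30 found over the whole array. Of the SNAP genes, Snap23, the partner of Stx4a in non-neuronal cells, read 341 in knockout skin and 461 in wild type skin (-0.43). Snap47 read 1382 in knockout skin and 1430 in wild type skin (-0.05), and Snap91, a clathrin assembly gene that shares only its symbol with the SNAREs, was at the floor together with Snap25. The difference between the VAMP and syntaxin families was not tested.

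**Figure D5:**
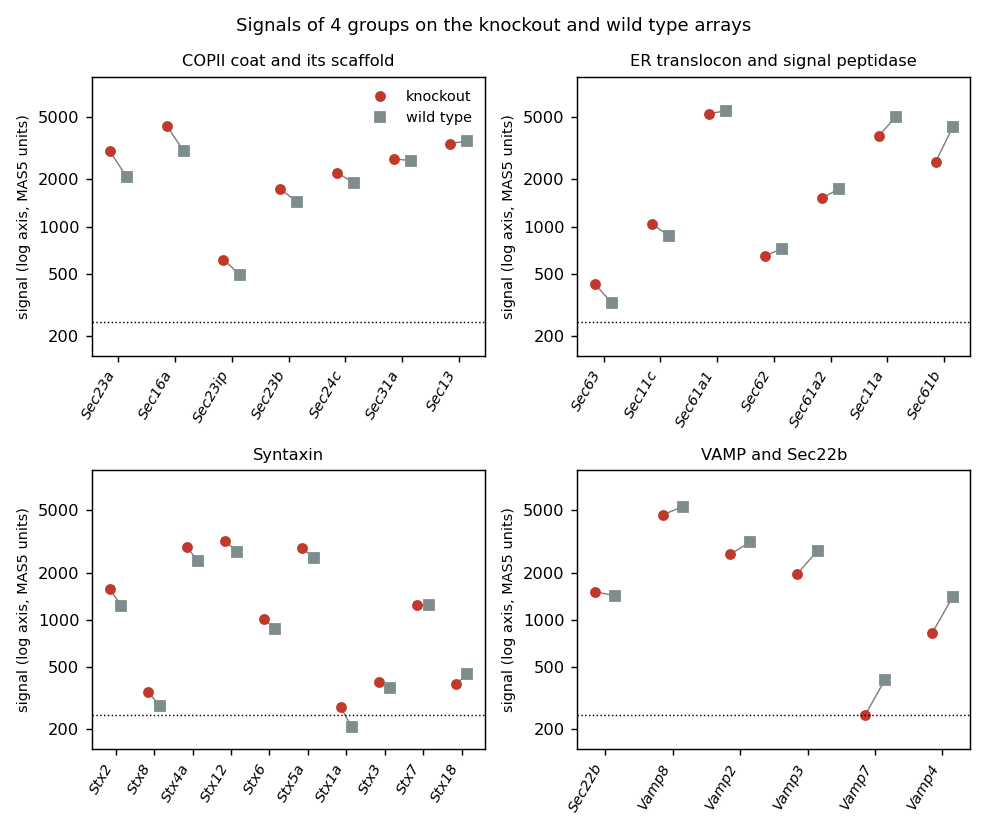
Signals of each measured gene in 4 groups on a log axis, with the knockout array as a red circle left of the wild type array as a grey square, joined by a line, and genes ordered by log2 ratio within a panel. COPII and syntaxin genes mostly slope down to the wild type, and VAMP genes slope up to it. The dotted line is the floor of 246.7, and levels of different genes come from different probes and are not comparable.

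Of the Rab GTPase genes, 27 of 33 were measured, 8 higher and 19 lower, with a median of -0.07. The exocytic Rabs were lower in 5 of 5 cases (4 of 5 with quantile normalization or a lowess correction), against 46.1% of all measured genes. Their median was -0.27, or -0.08 with the mean over probe sets. They ran from Rab3a to Rab8a (-0.02), and Rab10 was among them. Rab10 read 3988 in knockout skin and 4819 in wild type skin (-0.27) with its brighter probe set, and 3783 in knockout skin and 3231 in wild type skin (0.23) with the other. Of the Rabs between the endoplasmic reticulum and the Golgi, Rab2a was the lowest (2803 in knockout skin, 3821 in wild type skin, -0.45) and Rab1a was at -0.01. The late endosomal Rab7 read 2364 in knockout skin and 3018 in wild type skin (-0.35), and its other probe set gave -0.29. Both probe sets of Rab7 were therefore lower by a similar amount.

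Rabs of early and recycling endosomes held the higher members of the family, but both groups were divided. Of the early endosomal Rabs 3 were higher and 4 lower (median -0.13, or 0.17 with the mean over probe sets). Of the recycling Rabs 2 were higher and 2 lower (median 0.15). Rab4a, which returns receptors quickly to the surface, read 1068 in knockout skin and 722 in wild type skin (1.48-fold higher), while its relative Rab4b was at -0.13. Rab21, which carries integrins, read 911 in knockout skin and 629 in wild type skin (1.45-fold higher). Rab25, an epithelial member of the Rab11 group, read 953 in knockout skin and 652 in wild type skin (1.46-fold higher), and Rab11b was at 0.37. Rab11a, the main Rab of recycling endosomes, read 8191 in knockout skin and 8578 in wild type skin (-0.07), and its other probe set gave -0.37. The 3 Rab5 genes, which organise early endosomes, were split: Rab5b was at least 1.44-fold higher (355 in knockout skin, 176 in wild type skin), and Rab5a and Rab5c were at -0.21 and -0.25. For Rab31 the 2 probe sets gave -0.17 (722 in knockout skin, 811 in wild type skin) and 0.50 (391 in knockout skin, 276 in wild type skin). Close relatives may share labelled RNA between probe sets, so the single values of such pairs are uncertain.

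Among the Arf GTPases, Arf6, which acts at the plasma membrane and in endocytic recycling, was the highest (1337 in knockout skin, 906 in wild type skin, 0.56), and its other probe set was higher too (0.28). Arf4 of the Golgi was the lowest (4585 in knockout skin, 5073 in wild type skin, -0.15). Arf1, the GTPase that recruits COPI and AP-1, read 18062 in knockout skin and 18966 in wild type skin. Its log2 ratio was -0.07.

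The clathrin adaptor genes had ratios mostly within the within-gene SD of 0.38, and differences between the 3 complexes were not tested. AP-1, which sorts between the Golgi and endosomes, had 4 of 5 measured genes higher (median 0.32), among them its small subunit gene Ap1s1 (3578 in knockout skin, 2487 in wild type skin, 1.44-fold higher). With the mean over probe sets the AP-1 median was -0.11, with 2 higher and 3 lower, since Ap1m1 and Ap1b1 have a probe set of either sign. Ap1b1 read 2513 in knockout skin and 2442 in wild type skin with its brighter probe set, and 288 in knockout skin and 351 in wild type skin with the other. AP-2, the adaptor of endocytosis at the plasma membrane, had 1 of 4 higher (median -0.10), and Ap2m1, its medium subunit, read 5081 in knockout skin and 6986 in wild type skin (-0.46), with 0.16 from its other probe set (295 in knockout skin, 264 in wild type skin). AP-3, which sorts to lysosome-related organelles, had 4 of 5 higher (3 with quantile normalization or a lowess correction; median 0.13), led by Ap3d1 (0.40) and Ap3m1 (0.35).

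Genes of endosomal sorting were likewise divided within complexes. Of the retromer, which retrieves receptors from endosomes, Vps29 read 1581 in knockout skin and 2319 in wild type skin (1.47-fold lower) and Vps26a 2082 in knockout skin and 2820 in wild type skin (1.35-fold lower). Vps35, which holds those 2 subunits together, was at 0.16, and Vps26b was at -0.12. The retriever gene Vps26c had probe sets at 0.36 (1269 in knockout skin, 989 in wild type skin) and -0.17 (918 in knockout skin, 1033 in wild type skin). Sorting nexins that work with the retromer ran from Snx6 (-0.26) to Snx5, with Snx1 at -0.11 and Snx2 at 0.24. Snx3, which binds the retromer on endosomes, read 8221 in knockout skin and 9571 in wild type skin (-0.22).

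In the GARP tether, Vps53 and Vps51 were higher (log2 ratios 0.73 and 0.44), Vps54 was at -0.09 and Vps52 was lower (762 in knockout skin, 1117 in wild type skin, -0.55). The 4 subunits of this complex therefore lay 2 on either side of 0. The ESCRT genes, which sort ubiquitinated receptors into the lysosomal path, were the most even of the groups with 5 measured genes, from Vps37b (-0.11) to Vps28 (0.13). The tethering and fusion genes Vps16, Vps41 and Vps45 were at 0.04, 0.16 and a bound of 0.14. Vps72, a chromatin remodelling subunit that only shares the symbol, was at -0.18. The antisense transcripts Rab10os and Rab26os were at -0.05 and 0.24, and no strand information was used for them.

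Among traffic genes outside the symbol rule, those past 1.5-fold with the main floor were all higher, in a share near that of all measured genes. Of 112 listed genes (fusion factors, clathrin, Rab and Arf regulators, cargo receptors, golgins, tethers and sorting receptors) 80 were on the array and 71 were measured, 40 higher and 31 lower, with a median log2 ratio of 0.05. At least 1.5-fold, 7 were higher (9.86%, against 7.63% of all measured genes) and 0 were lower (against 5.27%). With a pseudocount 3 of the 71 were higher, against 4.07% of all measured genes. With no floor 12 of 80 were higher and 4 lower, against 15.8% and 8.44% of all genes. Golga3, a golgin, was 1.79-fold higher (559 in knockout skin, 312 in wild type skin), and Golga4, another golgin, 1.56-fold (2313 in knockout skin, 1481 in wild type skin). Gbf1 and Arfgef1, the exchange factors that load Arf1 with GTP at the early and late Golgi, were 1.59-fold higher each, with 1280 and 3161 in knockout skin and 806 and 1983 in wild type skin. The endocytic adaptor gene Epn2 was 1.66-fold higher (2022 in knockout skin, 1221 in wild type skin) and the cargo receptor gene Tmed9 1.61-fold (5114 in knockout skin, 3179 in wild type skin). Rabggta, a subunit of the enzyme that attaches the lipid anchor to Rabs, was 1.53-fold higher (809 in knockout skin, 529 in wild type skin). These 7 genes act at the Golgi, at the plasma membrane and on Rabs, and Arf1 itself did not differ by more than the spread between probe sets.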

How the data were processed

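Skin RNA of 6 newborn animals per genotype was pooled, and each pool was read on 1 array. The authors deposited linear intensities for each probe set, made with MAS5 per the submitters' processing notes; the version, scaling target and detection calls are not given in the sources used here. Both arrays were set to a common 2% trimmed mean, controls left out, by factors of 1.0001 and 0.9999. Values were then raised to a floor at the 40th percentile, and log2 ratios were taken (Python 3.11.15, numpy 2.4.6, pandas 2.3.3). Genes were named from the platform annotation where a probe set had 1 symbol, and all 142 were found by Entrez identifier in RefSeq. The 2 traffic probe sets with several symbols were left out.

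With 1 array per group no test was run, so results are sizes, and the number of arrays limits their precision. Printed signals are as deposited. The members, lists and limits of fold were chosen with earlier results of these data known. Both signals are printed for members past 1.5-fold, the 3 with the highest signal (a rule for names only, since signals of different probes are not comparable), the ends of each family and genes with discordant probe sets, and for other traffic genes past 1.5-fold. The calculation was checked on simulated arrays with large changes in bright genes, scored at 2-fold. That check does not cover the 1.5-fold calls or genes near the floor. The alternatives were another floor (25th or 60th percentile), a pseudocount equal to the floor, no floor, genes above the floor on both arrays, quantile normalization, a lowess correction, the mean over probe sets, and plain probe sets only.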

Additional observations from a re-analysis of the deposited data

How the results depend on the processing

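No paired analysis was possible because each genotype has 1 array, and no replicate could be left out. Over the 9 alternatives the median log2 ratio of the members ran from -0.05 (60th percentile floor) to 0.02 (no floor). At least 2-fold, 1 member was higher under a 25th percentile floor (Rab5b; 0.746%, against 2.90% of all measured genes), and 3 were higher and 2 lower with no floor (Rab5b, Vps13c and Snap25 higher, Ap2s1 and Snx27 lower, of which all but Rab5b were at the floor on both arrays otherwise). At least 1.5-fold, 3 (2.94%) were higher under a 60th percentile floor, against 5.11% of all measured genes, and with no floor 9 (6.34%) were higher and 8 (5.63%) lower, against 15.8% and 8.44% of all genes. Of 71 other traffic genes, 3 were at least 1.5-fold higher with a pseudocount, against 4.07% of all measured genes. With no floor 12 of 80 were higher and 4 lower, against 15.8% and 8.44% of all genes. Under a 25th percentile floor 1 other traffic gene was lower, against 6.37% of all measured genes. None of the 10 members past 1.5-fold changed sign under an alternative that gave it a value. Copb2 had no value with plain probe sets only, as neither of its probe sets is plain. Snx13, Rab3il1 and Vamp7 had none under a 60th percentile floor. Rab34, Rab3a, Sec61b and Vps53 stayed past 1.5-fold under all 9. Rab34, Sec61b and Vps53 each have 1 probe set, so the mean over probe sets could not change them. Only the pseudocount, quantile normalization and the lowess correction altered their ratios. The other probe set of Rab3a was at the floor on both arrays. Copb2 was at a log2 ratio of 0.20 and Vamp4 at -0.31 with the mean over probe sets, since their probe sets disagree, and Snx5, at 0.57, was then short of 1.5-fold too. With a pseudocount Rab3il1 was at 0.50, Vamp7 at -0.43 and Snx13 at 0.60, of which Snx13 alone stayed past 1.5-fold. Alternatives for the families and the other traffic genes were added after the data were seen. The VAMP median ran from -0.62 to -0.26 and the syntaxin median from 0.17 to 0.23.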
